A study of Mus musculus with 2 samples.

Results

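The costimulation cluster of mouse chromosome 1 holds 3 neighbouring genes of 1 receptor family, Cd28, Ctla4 and Icos. It was taken as the window from 60780000 to 61080000 of build mm9, in this order of genes, and every read whose fragment centre lay in that window was used. Within it lay 49 GATA3 sites, out of 65953 in the whole genome. Of these, 46 were called in the library of cells labelled TGF-β +IL-4 (of 55738 over the genome) and 31 in the library whose treatment is given as NA (of 36330). A site is a stretch in which fragments piled up above the surrounding 10 kb in at least 1 library, with both libraries at equal depth. The sites are numbered 1 to 49 from the Cd28 end.

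Both libraries came from CD4+ T cells of C57BL/6 mice, naive (CD25-negative and CD62L-positive) when isolated, and chromatin was precipitated with an antibody to the transcription factor GATA3. One library is labelled TGF-β +IL-4. The growth protocol names TGF-β1 at 2 ng/ml, IL-4 at 10 ng/ml, and plate-bound anti-CD3 and soluble anti-CD28 at 1 µg/ml each. The other library carries the entry NA for treatment and is called the NA library here, and the first the TGF-β/IL-4 library. The shared protocol describes TGF-β1 with or without IL-4, so TGF-β1 alone and no stimulation cannot be told apart for that library. Precipitated DNA gives no expression of marker genes, so the labelled cell type was not checked. Anti-CD28 in the culture engages the product of 1 of the 3 genes described here. Each group has 1 library and neither input nor control-antibody chromatin was used, so no p-value is given for any difference. The 95% intervals cover counting error only, and a difference between libraries cannot be told apart from one between groups. Autosomes, X and Y together held 22963959 reads in the NA library and 15561681 in the TGF-β/IL-4 library. Levels are given as RPM, reads per 1000000 of the library.

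CD28, the product of Cd28, is the receptor through which CD80 and CD86 on antigen-presenting cells deliver the costimulatory signal that a naive T cell needs beside its antigen receptor. CTLA-4, the product of Ctla4, binds the same ligands more tightly and holds the response back, and regulatory T cells carry much of it. ICOS, the product of Icos, appears after activation, binds ICOS ligand, and is known for its part in T helper 2 and follicular helper responses. GATA3, the zinc-finger factor of T helper 2 cells, recognises the core letters GATA.

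In the RefSeq annotation of GRCm38.p6 no other protein-coding gene lies between Cd28 and Icos. It places 4 long noncoding RNA genes and 4 pseudogenes there. Raph1 and Pard3b are the nearest protein-coding neighbours on either side. That table is of another build than the reads, so no gene boundary was carried over. The comparison gene by gene was therefore made over 3 stretches of 100 kb each. These are the Cd28 end (to 60880000), the middle stretch (to 60980000) and the Icos end. No site is assigned to an exon, intron or promoter.

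Of the 3 genes, Ctla4 had a promoter sequence in the RefSeq table used. The 250 bases before its annotated start (GRCm38.p6, plus strand, shown 5′ to 3′) are given because GATA3 reads are compared around this gene, and capitals would mark a GATA match:
Ctla4: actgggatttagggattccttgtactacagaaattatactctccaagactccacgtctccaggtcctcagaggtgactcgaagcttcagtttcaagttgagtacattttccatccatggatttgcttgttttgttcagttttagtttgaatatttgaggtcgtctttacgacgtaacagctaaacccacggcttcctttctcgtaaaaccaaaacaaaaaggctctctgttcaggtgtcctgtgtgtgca
Neither the motif AGATAA nor its variant AGATAG occurred in these 250 bases on either strand, and the same held for the motif TGATAA and its variant TGATAG. Of 32851 RefSeq promoters cut to the same length, 26.5% held at least 1 of them. This says only that these letters were not in this stretch. Its mm9 position was not determined, so no site was matched to it.

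The cluster was dense in GATA3 sites. Its 49 sites compare with a median of 5 and a 90th percentile of 20 over 8365 covered, non-overlapping windows of 300 kb, and 99.96% of those windows held fewer. The window took 6334 reads (275.8 RPM) in the NA library, against a median of 103.2 RPM per window, and 6158 reads (395.7 RPM) in the TGF-β/IL-4 library, against a median of 100.5 RPM. Fewer reads were found in 97.2% and 99.8% of the windows, respectively. The cluster thus stood near the top of the genome in reads of either library and in sites of both counted together.

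**Figure D1:**
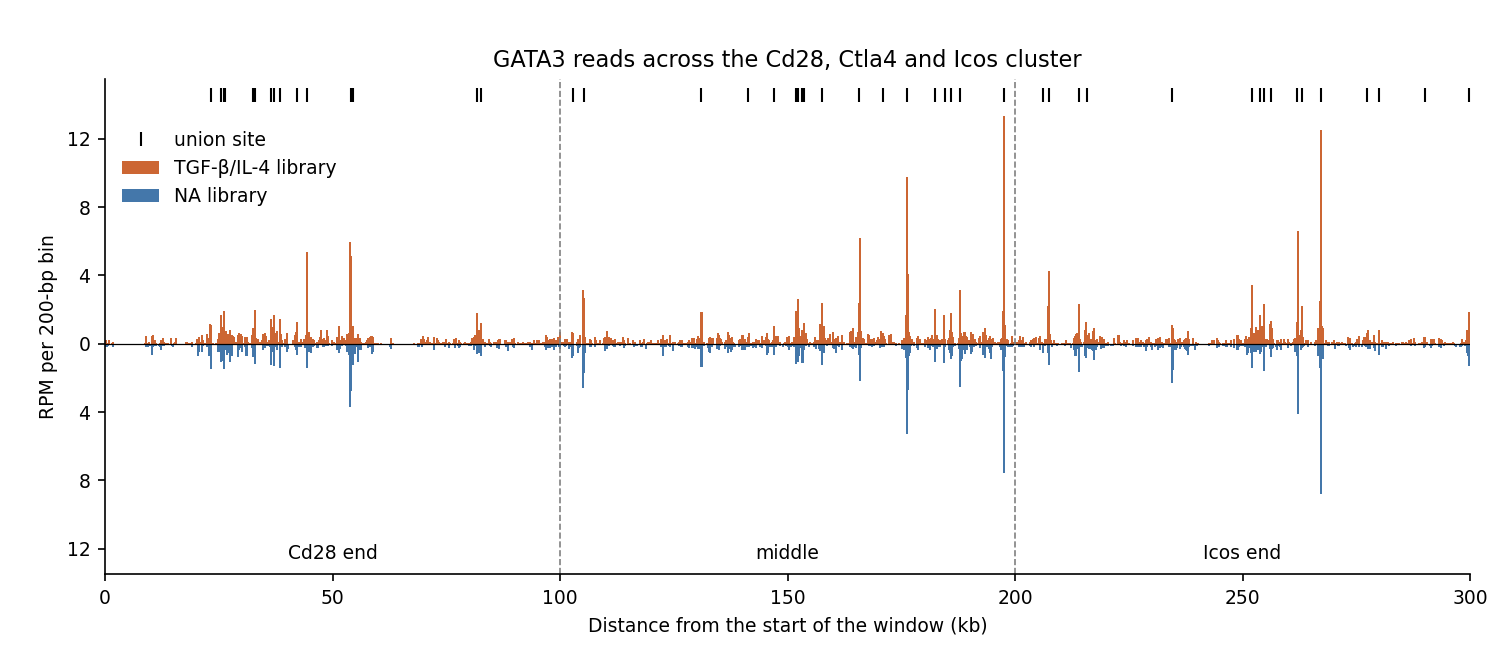
Reads per 200-bp bin as RPM along the window (kb from its start), with TGF-β/IL-4 upward and NA downward, and 1 tick for each of the 49 sites. The highest bin reached 13.4 RPM upward and 8.80 RPM downward, and the tall bins of both libraries stand at the same places.

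Sites were spread over all 3 stretches, with 15 at the Cd28 end, 18 in the middle and 16 at the Icos end. They were not evenly spaced. The median gap between neighbours was 3490 bp and 11 gaps were under 1 kb. Sites 1 to 11 followed each other between 60803151 and 60824640 at the Cd28 end, whereas 26970 bp without a site separated sites 13 and 14, and 25600 bp separated sites 17 and 18. Sites thus lay in groups, with long spans between them that held no called site.

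The strongest sites were the same in both libraries. Sites 45, 33, 28 and 12 were the 4 highest by RPM in each library, and none of the 4 reached a ratio of 2. Site 45, at the Icos end from 61047031 to 61047460, had 238 reads (10.4 RPM) in the NA library and 237 (15.2 RPM) in the other, with a ratio of 1.47 (95% interval from 1.22 to 1.77). Site 33, in the middle from 60977311 to 60977660, had 218 (9.49 RPM) and 243 (15.6 RPM), a ratio of 1.64 (1.36 to 1.98). Site 28, in the middle from 60956051 to 60956540, had 199 (8.67 RPM) and 237 (15.2 RPM), a ratio of 1.76 (1.45 to 2.13). The intervals of these 3 ratios overlap one another. Site 12, the strongest at the Cd28 end (60833851 to 60834120), had 146 (6.36 RPM) and 169 (10.9 RPM), a ratio of 1.71 (1.36 to 2.15). Over the 25691 sites of the genome called in both libraries the median ratio was 1.34. All 4 ratios lay above this common level, and the lower bound of site 45 fell below it. Most of those sites were weaker. Over the genome's 6597 sites at or above the 90th percentile of mean RPM the median ratio was 1.52, which lies within all 4 intervals.

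Larger ratios were found at 3 strong sites, 1 in each stretch. At the Cd28 end, site 11 (60824221 to 60824640) went from 59 reads (2.57 RPM) to 138 (8.87 RPM), a ratio of 3.45 (2.53 to 4.77). In the middle, site 26 (60945571 to 60945960) went from 64 reads (2.79 RPM) to 135 (8.68 RPM), a ratio of 3.11 (2.30 to 4.26). At the Icos end, site 35 (60987251 to 60987660) went from 41 reads (1.79 RPM) to 108 (6.94 RPM), a ratio of 3.89 (2.69 to 5.71). All 3 were called in both libraries. Their intervals lie above those of sites 45, 33 and 28. Sites 11, 26 and 35 were singled out here by their ratios, so this is a description and no test. Scaled to the common level of 1.34, their ratios were 2.59, 2.33 and 2.91. At site 26, 70.3% of the reads in one library and 81.5% in the other had the top mapping quality, against 87.8% and 88.3% over the whole libraries.

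**Figure D2:**
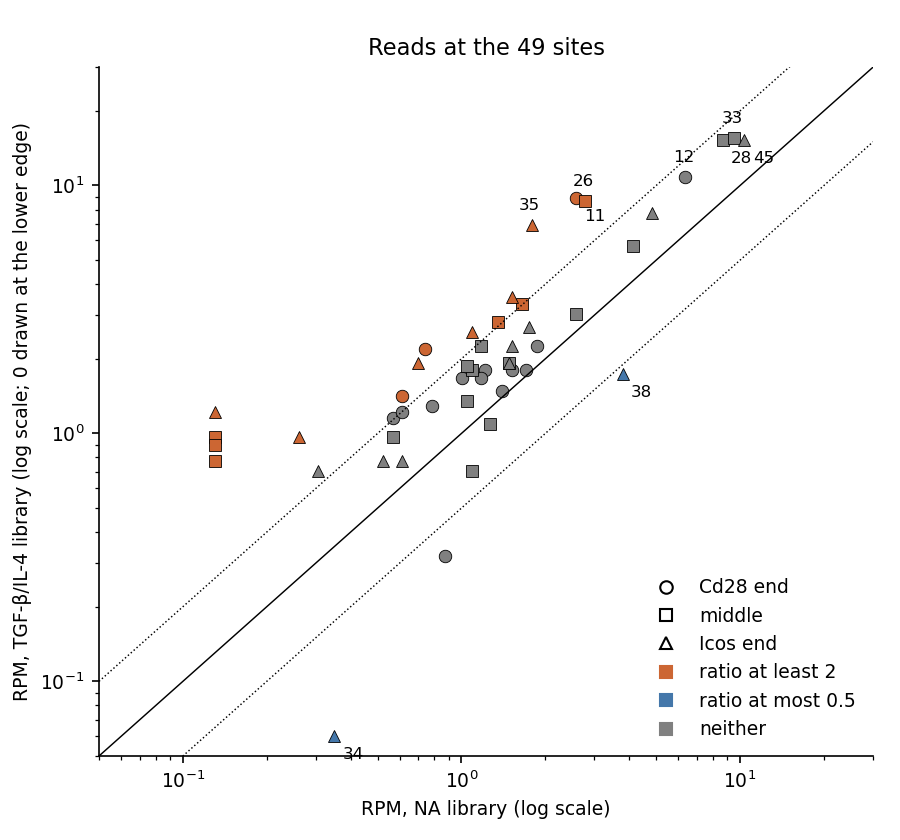
RPM of each of the 49 sites in the 2 libraries on log axes, with symbols for the 3 stretches, colours for the size rule, a solid line at equal RPM and dotted lines at ratios of 2 and 0.5. Sites 12, 28, 33 and 45 lie highest and between the lines of equal and doubled RPM, sites 11, 26 and 35 lie above the upper dotted line, and site 38 lies below the lower one. Site 34, with 0 reads in 1 library, is drawn near the lower edge.

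At the Cd28 end, 3 of 15 sites were higher with TGF-β/IL-4 by the size rule (a ratio of at least 2 and an interval above 1) and 0 were lower (a ratio of at most 0.5 and an interval below 1). Over all sites of the genome 25.4% were higher and 3.66% lower by this rule. Besides site 11, site 14 (60861611 to 60861840) passed, with 17 reads (0.740 RPM) against 34 (2.18 RPM) and a ratio of 2.95 (1.60 to 5.63). At site 14 only 58.8% and 44.1% of reads were at the top mapping quality, and with those reads alone its ratio was 2.201 (0.925 to 5.48), no longer past the rule. In the run of sites 1 to 11, sites 10 and 11 passed the rule and sites 1 to 9 did not. Site 10 had a ratio of 2.32 (1.13 to 4.90). With read ends shifted by 100 bp instead of 63 bp, sites 4 and 6 passed as higher too. Site 1 (60803151 to 60803340) had 39 reads (1.70 RPM) and 28 (1.80 RPM), a ratio of 1.06 (0.628 to 1.77). Site 3 (60805951 to 60806140) had 43 (1.87 RPM) and 35 (2.25 RPM), a ratio of 1.201 (0.746 to 1.92), and site 8 (60816971 to 60817190) had 35 (1.52 RPM) and 28 (1.80 RPM), a ratio of 1.18 (0.692 to 2.00). The intervals of sites 1 to 9 all begin below 1, and their upper bounds run from 1.77 at site 1 to 4.54 at site 4. Site 4 had a ratio of 2.04 (0.946 to 4.54) and did not pass, so differences of that size could be missed at this depth.

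In the middle stretch 6 of 18 sites were higher and 0 lower. Site 26 was the strongest of the 6. Sites 19 (60921351 to 60921470), 24 (60933641 to 60933760) and 27 (60950941 to 60951060) were weak sites called only with TGF-β/IL-4. Each had 3 reads (0.131 RPM) in the NA library. In the TGF-β/IL-4 library they had 15 (0.964 RPM), 12 (0.771 RPM) and 14 reads (0.900 RPM), with ratios of 7.38 (2.09 to 39.8), 5.90 (1.59 to 32.6) and 6.89 (1.92 to 37.4). These are the widest intervals of the stretch, with lower bounds from 1.59 to 2.09. Ratios nearer to 1 were found at sites 17 and 32. Site 17 (60885041 to 60885350) had 95 reads (4.14 RPM) and 89 (5.72 RPM), a ratio of 1.38 (1.02 to 1.87). Site 32 (60967771 to 60967950) had 59 (2.57 RPM) and 47 (3.02 RPM), a ratio of 1.18 (0.784 to 1.75).

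At the Icos end sites passed the rule in both directions, with 6 of 16 higher and 2 lower. Site 39 (61031961 to 61032190) had 35 reads (1.52 RPM) against 55 (3.53 RPM), a ratio of 2.32 (1.49 to 3.65). Scaled to the common level its ratio was 1.74, no longer past the rule. Site 40 (61033771 to 61033910) had 16 (0.697 RPM) against 30 (1.93 RPM), a ratio of 2.77 (1.46 to 5.43). Site 44 (61043121 to 61043240) had 3 reads (0.131 RPM) against 19 (1.22 RPM), a ratio of 9.35 (2.75 to 49.3), the highest in the cluster. Site 44 lay 900 bp beyond site 43 (61041911 to 61042220), which had 111 reads (4.83 RPM) and 121 (7.78 RPM) and a ratio of 1.61 (1.23 to 2.10). Site 43 was called in both libraries and site 44 only in the TGF-β/IL-4 library, so site 44 is listed through the library in which it was high.

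Site 38 (61014401 to 61014710), also at the Icos end, was the one site of the cluster with more than a few reads that passed the rule as lower. It had 87 reads (3.79 RPM) in the NA library and 27 (1.74 RPM) with TGF-β/IL-4, a ratio of 0.458 (0.286 to 0.712). It was called in both libraries, and the nearest other site lay 17250 bp away. With read ends shifted by 100 bp instead of 63 bp the ratio was 0.533 (0.339 to 0.819), which keeps the direction but misses the bound of 0.5. The other lower site, 34 (60986081 to 60986190), had 8 reads (0.348 RPM) against 0. With the 0 reads replaced by the floor of 3 reads it was 1.81-fold lower, and the upper bound of its ratio was 0.864. With top-quality reads alone that bound was 1.02, so its place under the rule rests on few reads.

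**Figure D3:**
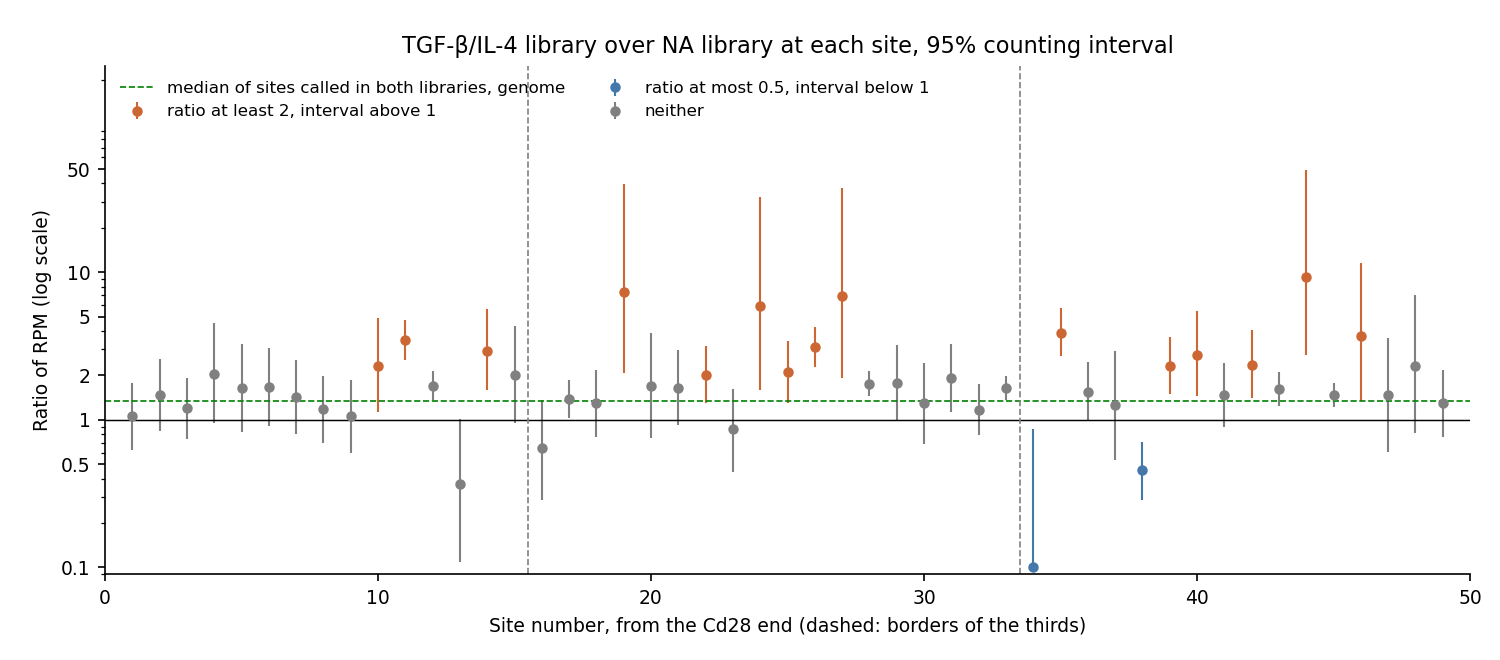
Ratio of RPM (TGF-β/IL-4 over NA, log axis) for sites 1 to 49 with exact 95% counting intervals, dashed lines at the borders of the stretches and a green line at the genome median of 1.34. Most points lie above 1, 15 are coloured as higher, and sites 34 and 38 as lower. The ratio of site 34 is 0 and is drawn at 0.1.

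Counted together, 15 of the 49 sites (30.6%) were higher and 2 (4.08%) were lower with TGF-β/IL-4, while 25.4% and 3.66% of all 65953 sites in the genome were. The share of sites past the rule was thus near the background in both directions. The naming rule left out 5 of the higher sites, 10, 22, 25, 42 and 46, which are listed here after their values were seen. Their ratios ran from 2.02 at site 22 to 3.69 at site 46. Scaled to the common level, sites 10, 22, 25 and 42 no longer passed the rule. With top-quality reads alone, site 22 did not pass either. The ratio was over 1 at 44 of the 49 sites, and at 75.4% of all sites of the genome. The median ratio of the 49 sites was 1.65, against a genome median of 1.60.

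How a site was called sets part of its ratio. Of the 28 cluster sites called in both libraries, 6 were higher and 1 lower, with a median ratio of 1.48. Of the 18 called only with TGF-β/IL-4, 9 were higher, and 44.8% of such sites over the genome were. Of the 3 called only in the NA library (sites 13, 23 and 34), 1 was lower, and 20.2% of such sites over the genome were. Among all sites of the genome called in both libraries, 12.9% were higher and 1.31% lower. The 9 cluster sites at or above the 90th percentile of mean RPM over all sites had ratios from 1.38 to 3.89 with a median of 1.71, and 3 of them were higher. Over the genome's 6597 sites of that strength the median was 1.52, and 17.0% were higher.

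Bins of 200 bp do not depend on where sites were called. Of the 1500 bins in the window, 119 held at least 20 reads over both libraries, and of these 22 (18.5%) were higher and 2 (1.68%) lower by the same rule. Over the genome 16.8% and 2.17% of 112461 such bins were. The median ratio of the 119 bins was 1.40, and that of the genome's bins was 1.34. Of the 22 higher bins, 20 touched a site, and 1 of the 2 lower bins did. The other lower bin ran from 60974601 to 60974800 with 20 reads against 4. In the NA library, 89 bins (5.93%) lay above the 99th percentile of all covered bins, and in the TGF-β/IL-4 library 95 (6.33%), with 63 bins common to both. Across the 1500 bins the reads of the libraries had a Pearson correlation of 0.927 and a Spearman correlation of 0.653, given as a description since bins share base composition and mappability and many hold few reads.

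By stretch, the ratios of all reads were close. The Cd28 end had 1837 reads (80.0 RPM) and 1750 (112.5 RPM), a ratio of 1.41 (1.32 to 1.502). The middle stretch had 2470 (107.6 RPM) and 2513 (161.5 RPM), a ratio of 1.501 (1.42 to 1.59). The Icos end had 2027 (88.3 RPM) and 1895 (121.8 RPM), a ratio of 1.38 (1.30 to 1.47). The 3 intervals overlap. For the whole window the ratio was 1.43 (1.38 to 1.49), and without the 4 sites that held the most reads it was 1.41 (1.35 to 1.46). The median over the 8365 windows was 1.03, and 98.1% of those windows had a lower ratio than the cluster. Those windows held a median of 5 sites against 49 here, and the genome's sites called in both libraries had a median ratio of 1.34. The cluster was not ranked among windows equally dense in sites.

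The shift was larger in the sites than around them, which also held over the genome. All sites of the genome together took 8.54% of the reads in the NA library and 12.6% in the TGF-β/IL-4 library. Reads in sites made up 34.0% of the window's reads in the NA library and 40.4% with TGF-β/IL-4, at a ratio of 1.70 (1.61 to 1.81). The 28 sites called in both libraries alone gave 1.66 (1.56 to 1.77). In the 1399 bins that touched no site the ratio was 1.27 (1.21 to 1.33), and in the 1040 bins at least 1 kb from any site it was 1.25 (1.18 to 1.33). Sites called through 1 library alone are listed because they were high there, so the stretches are given over sites called in both. These sites had ratios of 1.79 (1.57 to 2.05) at the Cd28 end, 1.69 (1.53 to 1.86) in the middle and 1.55 (1.39 to 1.74) at the Icos end. Their intervals lie above those of the bins touching no site, in the window and in each stretch. Outside sites the ratio was 1.26 (1.16 to 1.37) at the Cd28 end, 1.34 (1.25 to 1.45) in the middle and 1.18 (1.08 to 1.28) at the Icos end. Reads between the sites thus also took a larger share of the TGF-β/IL-4 library.

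**Figure D4:**
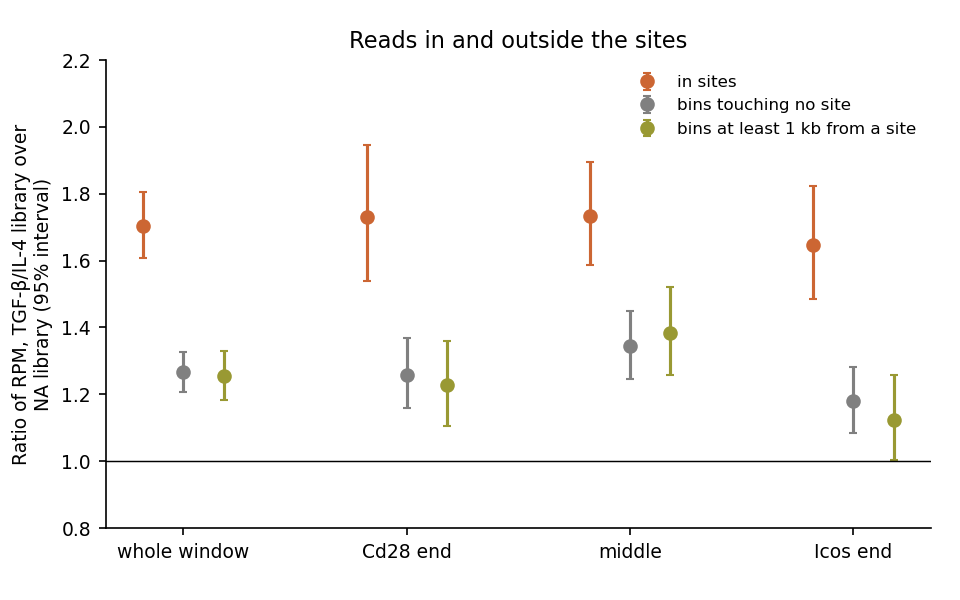
Ratio of RPM with exact 95% intervals for reads in sites, in bins touching no site and in bins at least 1 kb from a site, for the whole window and its 3 stretches. In-site ratios lie between 1.65 and 1.73 and ratios outside sites between 1.12 and 1.38.

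The sites were narrow, and most of those called in both libraries had summits close together in the 2 libraries. Site lengths ran from 100 to 490 bp with a median of 180 bp. At the 28 sites called in both libraries the summits lay a median of 20 bp apart, and at 25 of them at most 50 bp. The largest distances were 100 bp at site 8 and 80 bp at site 11. The strands lay a median of 122 bp and 125.5 bp apart, close to the libraries' fragment lengths of 125 and 130 bp. At the median site 97.1% and 96.4% of reads had the top mapping quality. At site 25, one of the higher sites, 79.5% of the TGF-β/IL-4 reads were on the plus strand and the strand distance was -15 bp, far from the fragment length. Each position counts at most 1 read per strand, and up to 34.7% of the positions at a site held one. At site 45 the share was 27.7% in the NA library and 27.6% in the other, and the part of this limit in the ratios was not tested.

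Around the 3 sites with the most reads, coverage at the summit was 7.05 in the NA library and 10.1 in the other at site 45, in fragments per 1000000 reads. It was 6.31 and 10.7 at site 33, and 5.36 and 9.32 at site 28. At site 11 the NA library showed a low and broad shape of at most 1.09, where the TGF-β/IL-4 library had a summit of 4.95. At site 26 the summit lay at the same place in both libraries, at 2.13 and 6.04. At site 38 the order was turned, with 2.87 and 1.48.

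**Figure D5:**
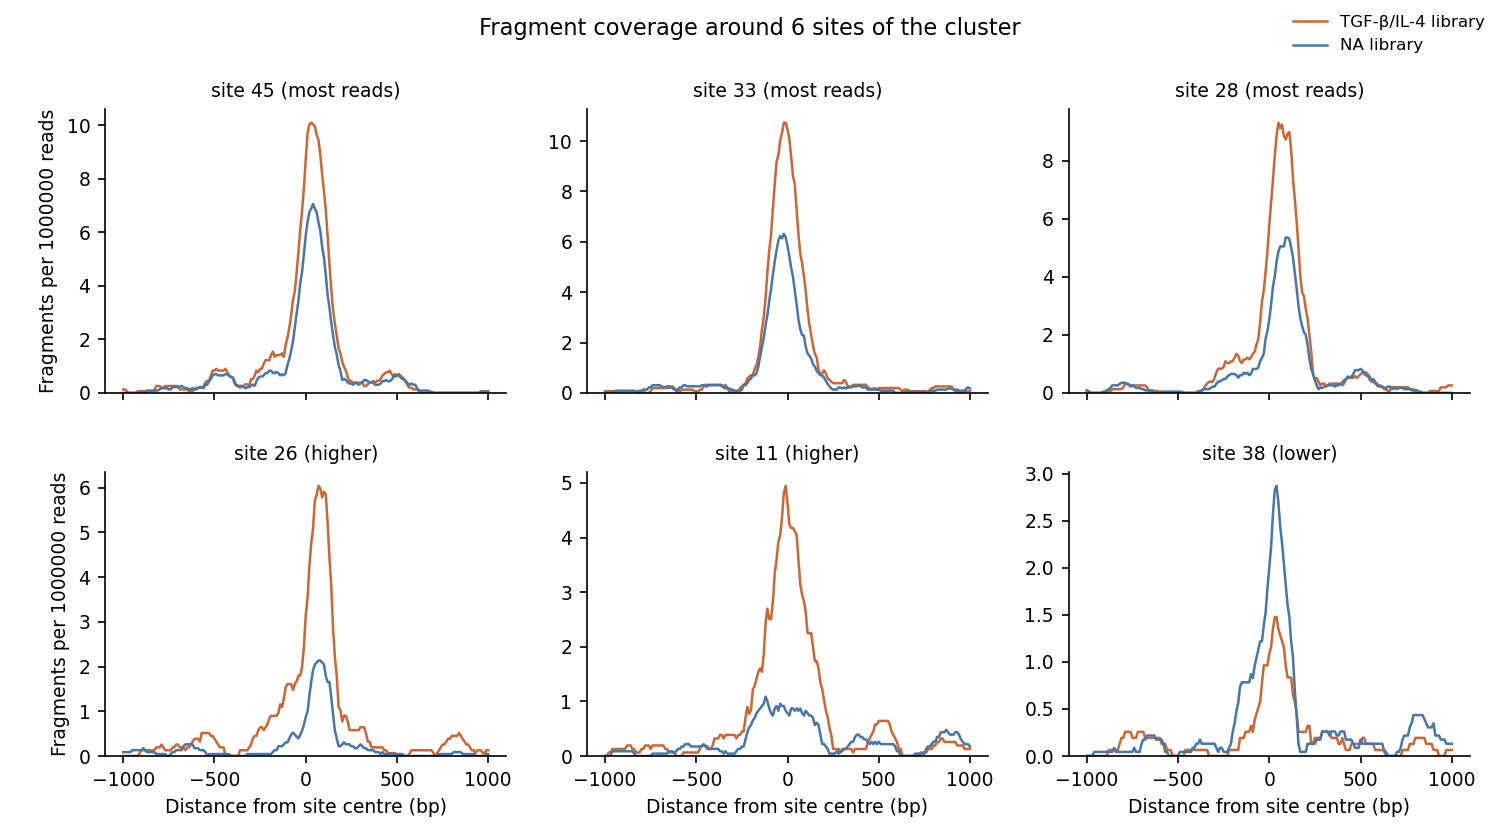
Fragments per 1000000 reads of the library within 1000 bp of the centre of 6 sites, the 3 with the most reads, the 2 higher sites with the most reads and the lower site with the most reads. Sites 45, 33 and 28 have a tall summit in both libraries. Site 11 has a tall summit in the TGF-β/IL-4 library and a low, broad shape in the NA library, and site 38 is taller in the NA library.

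Directions were read against the scaling. Scaled so that sites called in both libraries had a median ratio of 1, every log2 ratio fell by 0.42. Of the 49 sites, 35 then kept a ratio over 1, and 10 were higher and 3 lower. The shares of all genome sites were not counted on this scale. The split among sites past the rule moved from 15 against 2 to 10 against 3, and all 10 belonged to the 15. The ratios of sites 1, 3, 8 and 32, over 1 before, were between 0.794 and 0.900 on this scale. Sites 11, 26 and 35 remained among the higher ones and site 38 among the lower.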

How the data were processed

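The authors deposited 1 line per aligned read of 25 bases, with a mapping quality score (11 to 42) and no header. The submitters' processing notes list CASAVA 1.0, Bowtie2 and mm9, without settings. File names state a quality filter and removal of duplicates, and 0 reads shared position and strand with another. Reads were counted by fragment centre (5′ end moved 63 bp inwards) with scipy 1.17.1, pandas 2.3.3 and numpy 2.4.6 under Python 3.11.15, and drawn with matplotlib 3.10.9. Sites were called over the genome at 15561681 reads per library: fragment coverage every 10 bp, Poisson rate from the genome or the local 10 kb, Benjamini-Hochberg q under 0.01, gaps up to 100 bp merged, at least 100 bp long and 20% of reads per strand. Sites sharing 1 bp were joined, then counted with all reads. Ratio intervals are Clopper-Pearson, and the floor is 3 reads. Without molecular identifiers, reads that come from 1 molecule through PCR cannot be told apart, so intervals and floor cover counting error only. Caller and ratio rule were tested on simulated data. Named sites were the 5 with the highest mean RPM per stretch and up to 10 past the size rule per direction. The members and lists were chosen with earlier results of these data known.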

Additional observations from a re-analysis of the deposited data

How the results depend on the processing

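At a q of 1e-05 the cluster held 14 sites in the NA library and 26 in the TGF-β/IL-4 library, and at the other settings of the caller between 29 and 44 and between 38 and 48. With all reads of both libraries the deeper NA library had 44 sites, nearly the 46 of the other, so the difference in number depends on equal depth. Scaling by reads outside sites gave a window ratio of 1.502. Scaling to a median of 1 at sites called in both gave 1.07 (1.04 to 1.11) for the window and 1.12 (1.06 to 1.19) in the middle. It gave 1.05 (0.986 to 1.12) at the Cd28 end and 1.03 (0.970 to 1.10) at the Icos end, where the intervals include 1. The 2 lower sites became 1 with top-quality reads (site 38), 0 with a shift of 100 bp and 1 with the 10 kb background subtracted (site 38). The higher sites numbered 10 to 19 over the alternatives that kept the ratio of 2, and 21 when a ratio of at least 1.5 was asked. Scaling by the window's own reads outside sites, chosen after seeing the data, gave 10 higher and 3 lower. Among the 22 named sites, those past the size rule kept their direction in the 6 alternatives run on them, while the ratios of sites 1, 3, 8 and 32 fell below 1 when scaled to a median of 1 or by the window's reads outside sites. With 1 library per group no library could be left out, and sites under about 20 reads have intervals spanning several-fold. No paired analysis was possible because each group has 1 library.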

Other observations

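Of the 9 other genes of the CD28 and B7 family listed beside the cluster (Pdcd1, Btla, Cd80, Cd86, Icosl, Cd274, Pdcd1lg2, Cd276 and Vtcn1), all but Cd86 had a promoter in the RefSeq table of GRCm38.p6. At least 1 of the 4 GATA motifs searched occurred in the 250 bases before the start of Cd80, Cd274, Pdcd1lg2 and Vtcn1, with 2 matches at Cd274. No match occurred in the others that had a promoter there, and 26.5% of all promoters held at least 1. GATA3 reads at these genes were not placed, since their mm9 positions were not used here.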
